A study of Homo sapiens with 3 samples.

Results

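The genes described here are 42 genes of the mitotic spindle, kinetochore and spindle checkpoint, chosen by gene symbol for their known roles, out of 11963 genes named on the arrays. Earlier results of these data were known when they were chosen. All 42 were measured, each through the probe set (the group of short probes for one transcript) with the highest mean log2 signal among those annotated with 1 gene symbol. The cells were HT-29, a widely used epithelial line that was established from a human colon adenocarcinoma, grown for 24 h from 50000 plated cells per cm2 in serum-containing (10%) McCoy's 5A medium under 5% CO2. They were then given interferon-γ (IFN-γ), a cytokine released by T and NK cells, at 200 U/ml for 24 h. Total RNA of 3 cultures, which the series describes as biological replicates and which are called replicates 1, 2 and 3 here, was hybridised to 1 Affymetrix array each. All 3 cultures carried the same treatment and no untreated culture was analysed here, so every value is a level in treated cells and none measures a response to IFN-γ.

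Mitosis begins when CDK1, bound to cyclin B, is switched on by CDC25 phosphatases, and the chromosomes are then compacted by condensin and captured by spindle microtubules at their kinetochores. The spindle checkpoint holds back the anaphase-promoting complex until every kinetochore is attached. That complex, with its activator CDC20, then marks securin and cyclin B for destruction, which frees separase to cut the cohesin that joins sister chromatids. The genes of this programme are known to be expressed mainly late in the cell cycle, and to be repressed in resting cells, through a promoter element called the cell cycle genes homology region (CHR) and through CCAAT boxes. In RNA from a whole culture, fewer dividing cells and less RNA per dividing cell cannot be told apart.

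Each level depends on which name goes with which value, and this was inferred, because the deposited names appeared displaced against their values. After the 6 empty rows were dropped, the values in file order were assigned to 15 unnamed controls, the 100 probe sets numbered from 200000, the 493 with lower numbers, the other 21622 numbered probe sets in file order, and 47 unnamed controls. Across 4310 genes with several probe sets, mean log2 signal on the first 2 of them correlated with r = 0.19 under the deposited order and r = 0.60 under the corrected order. The same was done for the difference between arrays, log2 signal of replicate 3 minus replicate 2. Across the 16 genes of the mitotic set with several probe sets, this difference on the first 2 of them correlated with r = 0.15 (rho = 0.06) as deposited and r = 0.82 (rho = 0.76) after correction. Across all 4310 genes the same correlation was r = 0.02 as deposited and r = 0.17 (rho = 0.22) after correction. These correlations are across genes, which share the same 3 arrays and are not independent replicates, and they are given as descriptions. For mean level, by contrast, the correlation over the 16 genes was higher as deposited (r = 0.41, rho = 0.43) than after correction by Pearson's r (0.24), though not by rank (rho = 0.66).

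Most promoters of the set held both elements of the late cell cycle programme. RefSeq promoter windows of assembly GRCh38.p14, from 250 bases before the annotated start of a gene to 50 after it, were matched for 35 of the 42 genes. FOXM1, AURKA, BUB3, TTK, BIRC5, TPX2 and UBE2C were without a match. The CHR was searched as TTTGAA or TTCGAA, the CCAAT box as CCAAT, and the binding site of E2F factors as TTTGGCGC or TTTCGCGC, all on both strands and with overlaps between motifs allowed. A CHR was present in 24 of 35 windows (68.6%), compared with 16.4% of all 35116 windows in the table and 13.7% of the 22199 windows of protein-coding genes. CCAAT was present in 27 of 35 (77.1%), compared with 34.6% of all windows, and 16 of the 35 (45.7%) held it more than once, compared with 10.8%. Both elements together were in 20 of 35 windows (57.1%), compared with 6.38% of all windows. The searched E2F letters were in 2 of 35 windows (5.71%), those of CDK1 and NUSAP1, compared with 1.15% of all windows. A match is a description of letters, not of a bound factor.

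Stretches of 150 bases that end at the base before the start show this arrangement in 6 genes, 3 from either side of the difference between arrays described further on. All 6 hold both elements and so are not typical of either side. As deposited, both were in 5 of 12 matched genes lower in replicate 3 (41.7%) and 15 of 23 higher there (65.2%). PLK1 (chr16:23678739-23678888, plus strand), CDC20 (chr1:43358831-43358980, plus strand) and CDCA8 (chr1:37692366-37692515, plus strand) had lower signal in replicate 3 than in replicate 2 under every scaling tried. CCNB2 (chr15:59104996-59105145, plus strand), PRC1 (chr15:90994536-90994685, minus strand) and MKI67 (chr10:128126424-128126573, minus strand) had higher signal in replicate 3 as deposited, and lower signal there once arrays were centred on housekeeping genes. For MKI67 this holds for the brightest probe set, and its others gave differences of -0.24, -0.13 and 0.52 log2 units as deposited. The stretches are shown 5′ to 3′ on the strand of the gene, with CHR and CCAAT letters of either strand in capitals.
PLK1: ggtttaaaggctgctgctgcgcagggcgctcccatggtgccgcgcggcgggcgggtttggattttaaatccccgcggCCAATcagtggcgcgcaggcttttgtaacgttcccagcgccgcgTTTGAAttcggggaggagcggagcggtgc
CDC20: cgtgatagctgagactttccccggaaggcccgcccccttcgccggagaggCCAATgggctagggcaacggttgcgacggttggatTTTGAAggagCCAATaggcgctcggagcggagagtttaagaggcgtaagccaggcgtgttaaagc
CDCA8: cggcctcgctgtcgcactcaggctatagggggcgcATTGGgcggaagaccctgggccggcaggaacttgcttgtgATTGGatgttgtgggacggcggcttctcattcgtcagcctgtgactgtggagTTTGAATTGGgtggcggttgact
CCNB2: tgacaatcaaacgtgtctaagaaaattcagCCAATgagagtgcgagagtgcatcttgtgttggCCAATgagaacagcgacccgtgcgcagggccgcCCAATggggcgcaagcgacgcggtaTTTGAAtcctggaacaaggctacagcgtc
PRC1: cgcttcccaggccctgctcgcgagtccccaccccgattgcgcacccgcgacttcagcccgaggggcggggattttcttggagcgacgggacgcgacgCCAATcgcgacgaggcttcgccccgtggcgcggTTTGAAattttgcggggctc
MKI67: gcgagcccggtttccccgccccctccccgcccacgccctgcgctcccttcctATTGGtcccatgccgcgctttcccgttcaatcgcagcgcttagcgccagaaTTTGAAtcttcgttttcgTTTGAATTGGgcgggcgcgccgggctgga
Counting bases from the start, with -1 the base before it, PLK1 had a CCAAT box that began at -73 and a CHR that began at -29. CCNB2 had its CHR at the same position, preceded by CCAAT boxes that began at -120, -87 and -54. In CDCA8 and in MKI67 the last base of a CHR was also the first of a CCAAT box read on the opposite strand (ATTGG), which gives the longer run of capitals near the end of each. Over all 35 windows the 54 CCAAT matches began at a median of -74, and 37 of them began between -130 and -40. The 30 CHR matches began at a median of -29, and 21 of them began between -70 and 30.

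**Figure D1:**
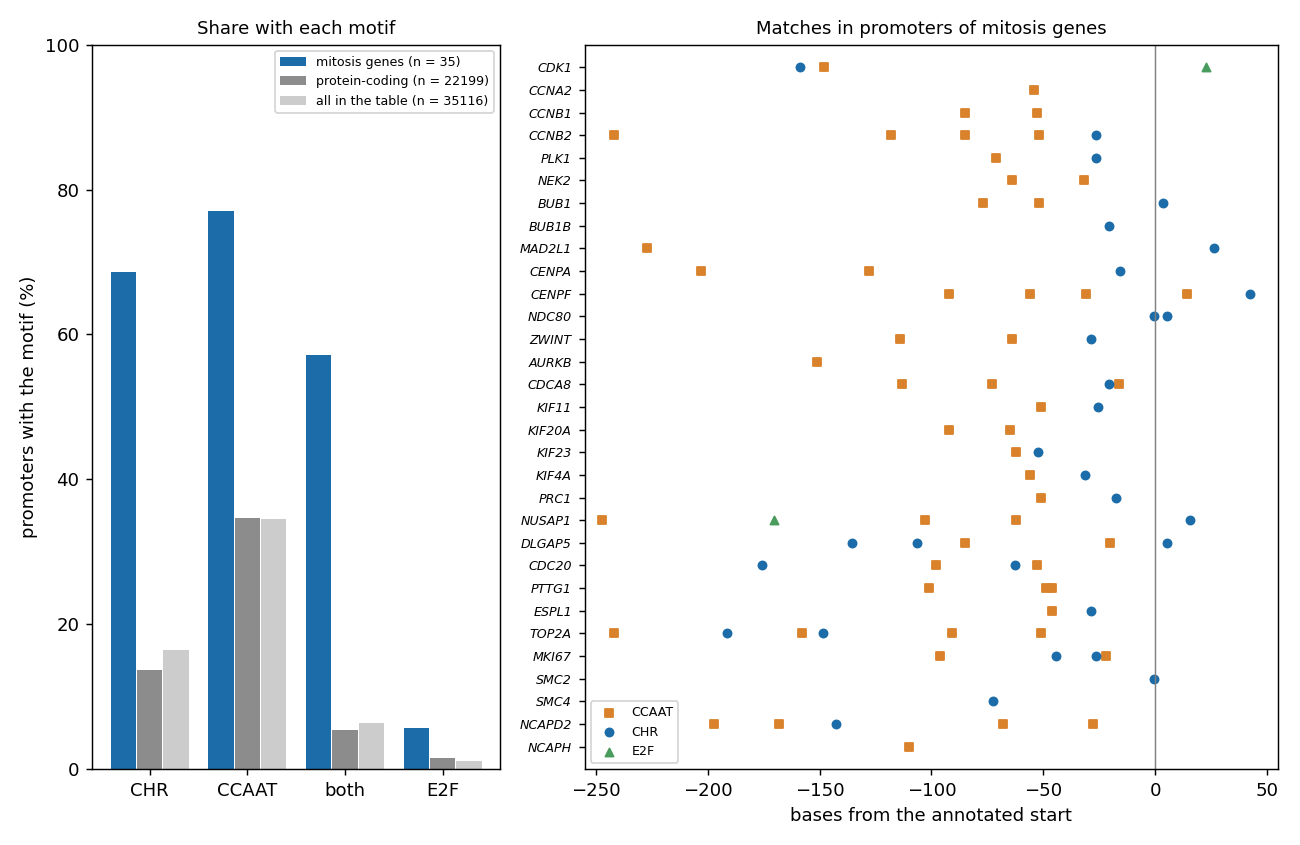
Left, percentage of promoter windows that hold a CHR, a CCAAT box, both, or an E2F site, for the 35 mitosis genes (blue), protein-coding genes (dark grey) and all windows of the table (light grey). Right, position of every match in bases from the annotated start, for each gene with at least 1 match. Orange squares mark CCAAT boxes, blue circles CHR letters and green triangles E2F letters, and 20 rows (57.1% of the 35 windows) hold both squares and circles.

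Every gene of the set was detected in the treated cells. A gene was called detected when its distance over a background limit, in log2 units, exceeded 0 given its error. Each SE of such a distance is limma's moderated error, which combines the spread of the 3 cultures with that seen across all genes. It can therefore be smaller or larger than the SE of the 3 cultures alone. The limit was set on each array from 78 measured genes that other tissues express, as their 95th percentile of signal, which came to 190.4 for replicate 1, 211 for replicate 2 and 176 for replicate 3. In a one-sided limma fit adjusted by Benjamini-Hochberg over all 11963 genes, 42 of 42 were detected, while 42.7% of all genes were. All 42 also lay above the limit on each of the 3 arrays. Their median was 2.66 log2 units over the limit, beside 0.00 over all genes tested and 2.11 over all detected genes, and 34 of the 42 were more than 2 log2 units over it. With the names as deposited, 1 of the 42 passed, and 3.18% of all genes. The background genes also took other values there, and the limits were 4155, 3792 and 3411 in replicates 1, 2 and 3. With the median over the probe sets of a gene 40 of 42 passed (39.8% of all genes), and with 32 added to each signal before the log 42 of 42 did (42.6%). The p-values treat the limit as fixed and leave out its error, and precision is bounded by having 3 arrays. Signals of different probe sets depend on their probes and were not ranked against each other. The order of the 3 arrays within a gene depends on how arrays are scaled, and unless stated it is given for the deposited scaling. The 13 housekeeping genes had median log2 signals of 13.19, 13.21 and 13.81 in replicates 1, 2 and 3, so centring on these medians lowers replicate 3 against the others. The median of their own differences between replicates 3 and 2 was smaller, 0.33 log2 units, and after centring on the medians 2 of the 13 were higher in replicate 3. Centring on the housekeeping genes' own differences, chosen after the data had been seen, lowers replicate 3 less and is given as a second centring where counts are compared.

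**Figure D2:**
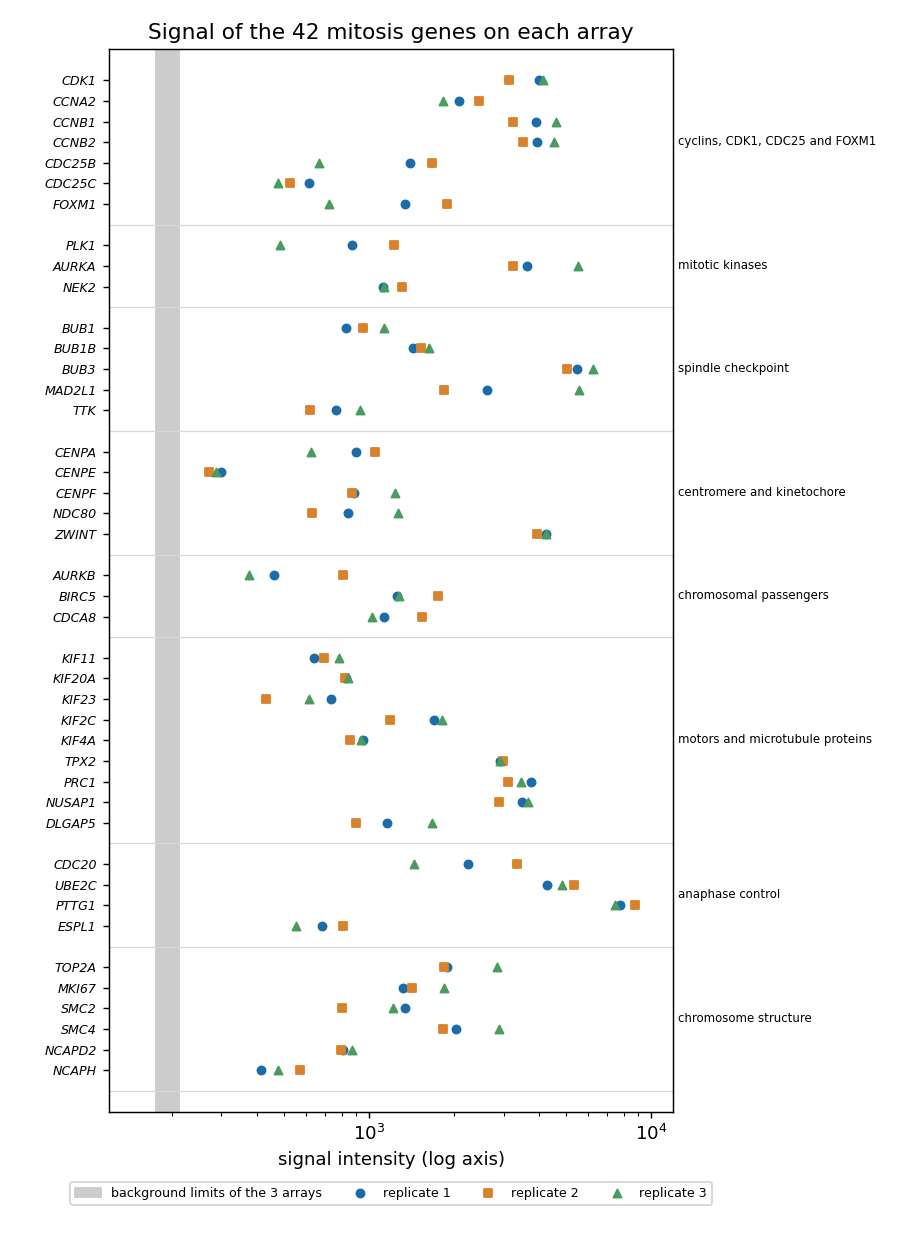
Signal intensity (log axis) of each of the 42 genes in replicates 1 (circles), 2 (squares) and 3 (triangles), grouped by role, with the range of the 3 background limits (176 to 211) as a grey band. All points lie to the right of the band, and CENPE comes closest with signals from 272 to 298.

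All 7 genes that govern entry into mitosis, the kinase CDK1, its cyclins and phosphatases and FOXM1, were detected. CDK1, the kinase that drives entry into mitosis, had signals of 4014, 3128 and 4148 in replicates 1, 2 and 3, with a mean of 3763 ± 555 (SD, n = 3), 4.28 ± 0.19 (SE) log2 units above its limit (adjusted p from limma = 1.62e-07). CCNB1, the main mitotic cyclin, had 3909.7, 3236 and 4596, and its relative CCNB2 had 3926, 3510.5 and 4533. All 3 of these genes were lowest in replicate 2 and highest in replicate 3 as deposited, but CDK1 was highest in replicate 1 after quantile normalization. All 3 were lowest in replicate 3 when centred on housekeeping genes. Under the second centring all 3 were lowest in replicate 2 and highest in replicate 1. CCNA2, the cyclin of DNA replication and early mitosis, had 2091, 2465 and 1829 on its brightest probe set, highest in replicate 2. Its other probe set had 2085, 1673 and 1658, highest in replicate 1. The phosphatase CDC25B, which activates CDK1 at the centrosome, had 1401, 1671 and 664, and its lowest value was 2.52-fold under its highest. CDC25C, a second activator of CDK1, had 615, 527 and 474 on its brightest probe set, and 257, 228 and 414 on another that lay above the limit, where replicate 3 was highest. FOXM1, the transcription factor of the late cell cycle programme, had 1339, 1886 and 721 and spanned 2.62-fold, with replicate 2 high and replicate 3 low. FOXM1 was read from a probe set whose _x_at suffix marks cross-hybridisation, so related transcripts can contribute to its signal.

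The mitotic kinases PLK1, AURKA and NEK2 were detected and did not share an order of arrays. PLK1, which acts at centrosomes, kinetochores and in cytokinesis, had signals of 871, 1223 and 485 in replicates 1, 2 and 3, a mean of 859 ± 369 (SD, n = 3) and 2.06 ± 0.22 (SE) log2 units above its limit (adjusted p from limma = 2.92e-05). AURKA, the kinase of centrosome maturation and spindle poles, had 3643, 3246 and 5487. PLK1 was lowest in replicate 3 under every scaling tried, and AURKA was higher in replicate 3 than in replicate 2 under every one. NEK2, a kinase that separates centrosomes, had 1124, 1312 and 1130.1 on its brightest probe set, which lay within 1.17-fold. Its other probe set varied more, with 559, 715 and 916, highest in replicate 3.

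All 5 spindle checkpoint genes were detected and, on their brightest probe sets, had their highest signal in replicate 3 as deposited and after quantile normalization. Only 1 of 5, MAD2L1, did when centred on housekeeping genes or under the second centring. Among all detected genes, replicate 3 was highest for 33.7%, 36.8%, 4.05% and 10.0% under these scalings, in that order. MAD2L1, the protein that binds and blocks CDC20, had signals of 2621, 1851 and 5567 in replicates 1, 2 and 3 and a mean of 3346 ± 1961 (SD, n = 3), 3.96 ± 0.31 (SE) log2 units above its limit (adjusted p from limma = 3.75e-06). Its value in replicate 3 was 3.01-fold that in replicate 2, the widest span of the 42 genes. The checkpoint kinase BUB1 had 829.5, 949.9 and 1132, and BUB1B, the partner of MAD2L1 in the inhibitory complex, had 1438, 1532 and 1629. BUB3, which anchors both at kinetochores, had 5456, 5039 and 6222, from a probe set with the _x_at suffix. TTK, the kinase at the top of the checkpoint, had 763, 616 and 927. Other probe sets above the limit did not all share this order. One of BUB1 had 802, 809 and 723, lowest in replicate 3. One of BUB3 had 2863, 2435 and 2652, highest in replicate 1. The spread among the 5 genes was uneven, from 1.13-fold between the lowest and the highest array for BUB1B to 3.01-fold for MAD2L1.

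Centromere and kinetochore genes were all detected, with CENPE the narrowest pass of the set. CENPE, a kinesin that moves chromosomes to the spindle equator, had signals of 298, 272 and 287 in replicates 1, 2 and 3, a mean of 285 ± 13.3 (SD, n = 3) and 0.57 ± 0.20 (SE) log2 units above its limit (adjusted p from limma = 0.0246). It no longer passed without replicate 1 (adjusted p = 0.169), without replicate 3 (adjusted p = 0.0651) or with a limit from markers of other cell types (adjusted p = 0.588), and it lay at -0.10 log2 units with a limit at the 99th percentile. Its 3 signals were alike and close to the limit. NDC80, the kinetochore protein that binds microtubules, had 845, 627 and 1268. ZWINT, an outer kinetochore protein, had 4254, 3942 and 4259, within 1.08-fold. CENPF, a large protein of the outer kinetochore, had 882, 869.9 and 1235. NDC80 and CENPF were highest in replicate 3 as deposited and under the second centring, which neither was when centred on housekeeping genes. CENPA, the histone variant of centromeres, was lowest in replicate 3 under every scaling tried, with 903, 1047 and 626. CENPA was also read from a probe set with the _x_at suffix.

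The 3 chromosomal passenger genes and the 4 genes of anaphase control shared their highest array, replicate 2, under the deposited scaling, quantile normalization and both centrings on housekeeping genes. Among all detected genes, replicate 2 was highest for 37.2%, 36.8%, 44.6% and 34.5% under these scalings, with the second centring last. The lowest array was replicate 3 for 5 of the 7 as deposited (45.1% of detected genes), and replicate 1 for BIRC5 and UBE2C (18.8%). AURKB, the kinase of the passenger complex, had signals of 460.3, 811 and 375 in replicates 1, 2 and 3, a mean of 549 ± 231 (SD, n = 3) and 1.43 ± 0.21 (SE) log2 units above its limit (adjusted p from limma = 2.15e-04). BIRC5 (survivin) had 1256, 1762 and 1278, and CDCA8 (borealin) had 1129, 1536 and 1021. These 2 proteins hold the kinase at centromeres. CDC20, the activator of the anaphase-promoting complex and the target of the checkpoint, had 2247, 3337 and 1443, a span of 2.31-fold. UBE2C, the ubiquitin-conjugating enzyme of that complex, had 4283, 5312 and 4818. PTTG1 (securin), the inhibitor of separase, had 7744, 8788 and 7424, from a probe set with the _x_at suffix. ESPL1, separase itself, had 683, 808 and 550.4. Replicate 3 minus replicate 2 came to -1.21 log2 units for CDC20 and -1.11 for AURKB, and to -0.14 for UBE2C, the smallest difference among these genes.

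Motor and microtubule genes were detected in 9 of 9 cases and included the steadiest signals of the set as deposited. TPX2, which activates AURKA on spindle microtubules, had signals of 2917, 2974 and 2913 in replicates 1, 2 and 3, within 1.02-fold. KIF20A, a kinesin of the central spindle and cytokinesis, had 829, 821 and 844, within 1.03-fold. The span of TPX2 grew to 1.54-fold when centred on housekeeping genes and to 1.36-fold under the second centring. KIF11, the motor that pushes spindle poles apart, had 636, 691 and 785, and KIF4A, a chromosome-bound kinesin, had 952, 854 and 941. KIF2C, which takes apart microtubules at wrong attachments, had 1706, 1189 and 1811. KIF23, a central spindle motor needed for cytokinesis, had 733, 433 and 615, and PRC1, which bundles the microtubules of the central spindle, had 3766, 3119 and 3458. In 7 of the 9 genes replicate 2 was lowest, against 2 of 9 when centred on housekeeping genes and 4 of 9 under the second centring. Among all detected genes these shares were 36.1%, 12.6% and 24.8%. NUSAP1, which bundles spindle microtubules, had 3494, 2884 and 3669.9, and DLGAP5, a protein that stabilises spindle microtubules, had 1154, 902 and 1675, which was the widest span of the group at 1.86-fold.

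Genes of chromosome structure were detected throughout. TOP2A, the enzyme that untangles DNA, had signals of 1895, 1848 and 2843 in replicates 1, 2 and 3 and a mean of 2195 ± 562 (SD, n = 3). MKI67, the proliferation antigen that coats mitotic chromosomes, had 1325, 1425 and 1844. SMC2 and SMC4, the core subunits of condensin, had 1339, 803 and 1214 and 2039, 1832 and 2901 respectively. In 4 of the 6 genes of this group replicate 2 was lowest, against 3 of 6 when centred on housekeeping genes and 4 of 6 under the second centring. For all detected genes the shares were 36.1%, 12.6% and 24.8%. The other condensin subunits had narrower spans as deposited, with 810.0, 798 and 873 for NCAPD2 and 415, 568 and 477 for NCAPH. NCAPH was lowest in replicate 1 under that scaling. Centred on housekeeping genes, NCAPH spanned 1.80-fold and NCAPD2 1.42-fold, beside 1.69-fold for SMC2 and 1.13-fold for SMC4. Another probe set of SMC4 had closer signals as deposited, 1948, 1830 and 2057.

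Most other probe sets of these genes also lay above the limit, with exceptions in 5 genes. The 42 genes had 71 single-symbol probe sets, of which 63 lay above the limit on all 3 arrays. Of these 63, 42 were the brightest probe sets, which were picked for their high signal. Of the 16 genes with several probe sets, 11 had all of them above the limit. The same counts were not made over all genes on the arrays. The 8 other probe sets belonged to AURKA, BUB1, CDC25C, CENPF and SMC4, and 5 of them were above the limit on no array. BUB1 had 3 of its 5 under the limit on all arrays, with signals such as 16.6, 25.8 and 31.9, and with the median over its probe sets it lay at -0.42 log2 units. One probe set of CENPF had 15.7, 4.73 and 9.44 while its brightest had 882, 869.9 and 1235, and its median lay at -0.20 log2 units. The probe set of ESPL1 used here is numbered below 200000 and so lay in a block of names apart from the other genes of the set. A second ESPL1 probe set, from the main block, had 489, 725 and 389.9, and both were highest in replicate 2 and lowest in replicate 3.

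Suffixes limit what a probe set can say about 1 gene. Of the 42 genes, 4 were read from a probe set with the _x_at suffix and 17 from one with the _s_at suffix, which marks designs shared by several transcripts, and 21 from one without either. Without suffixed probe sets, 24 of the 27 genes still measured were detected, beside 34.3% of all genes, and the exceptions were CDC25C, AURKA and CENPF. Their remaining probe sets lay at -2.50, -0.29 and -4.31 log2 units.

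**Figure D3:**
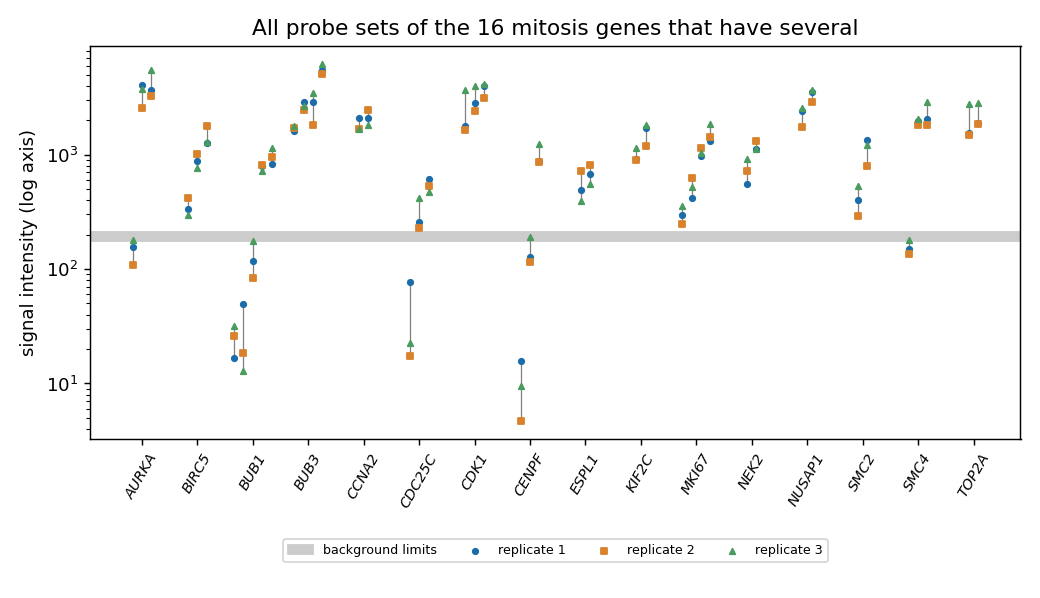
Signal intensity (log axis) on each array for every single-symbol probe set of the 16 genes that have several; a vertical line joins the 3 arrays of one probe set and the grey band is the range of background limits. Probe sets of AURKA, BUB1, CDC25C, CENPF and SMC4 lie at or under the band, while the 11 other genes have all of theirs above it.

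Replicate spread in the set was close to that of detected genes at large under the deposited scaling. Log2 signal had a median SD of 0.25 among the 42 genes (quartiles 0.15 and 0.39; 0.16 without replicate 2), beside 0.29 over all 5109 detected genes (quartiles 0.18 and 0.43). Centred on housekeeping genes the medians were 0.34 and 0.44, and under the second centring 0.27 and 0.37. The highest and lowest arrays were within 1.5-fold of each other for 25 of 42 genes (59.5%), and 54.6% of detected genes met that rule. They differed by over 2-fold for 7 of 42 (16.7%), and 14.8% of detected genes did. These 7 were CDC25B, FOXM1, PLK1, MAD2L1, NDC80, AURKB and CDC20. Across the 42 genes log2 signals correlated with r = 0.95 between replicates 1 and 2, 0.94 between 1 and 3 and 0.85 between 2 and 3, beside 0.96, 0.94 and 0.89 across all detected genes, as a description across genes on shared arrays.

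Replicates 2 and 3 lay farthest apart, with differences in both directions. The median absolute difference over the 42 genes was 0.45 log2 units between them, beside 0.24 between replicates 1 and 2 and 0.22 between 1 and 3. In the set 26 of 42 genes were higher in replicate 3 than in replicate 2, beside 46.4% of detected genes, and the median difference was 0.13 log2 units, beside -0.05 over detected genes. With each array centred on 13 housekeeping genes instead of the deposited scaling, 8 of 42 (19.0%) were higher in replicate 3, beside 13.5% of detected genes, and the median was -0.46, beside -0.65. Under the second centring 16 of 42 (38.1%) were, beside 27% of detected genes, and the median was -0.20, beside -0.39, so the direction depends on the scaling. Relative to the median of detected genes, 27 of 42 were higher in replicate 3 under the deposited scaling and under quantile normalization, a count that centring cannot change because it moves all genes of an array alike. Replicate 2 was the lowest array for 22 of 42 genes (36.1% of detected genes) and replicate 3 for 12 of 42 (45.1%). Replicate 1 was lowest for the other 8 (18.8%). Replicate 3 was highest for 21 of 42 (33.7%), replicate 2 for 15 (37.2%) and replicate 1 for 6 (29%). With 3 cultures of 1 group these are descriptions without a test.

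Counts by role were uneven, each over few genes. Among all detected genes, 46.4% were higher in replicate 3 than in replicate 2 as deposited. That share was 13.5% when centred on housekeeping genes and 27% under the second centring, and some role counts lay near it. All 5 checkpoint genes, 8 of 9 motor and microtubule genes and 5 of 6 chromosome structure genes were higher in replicate 3 than in replicate 2, against 1 of 5, 2 of 9 and 3 of 6 when centred on housekeeping genes and 2, 4 and 4 under the second centring. The genes of entry into mitosis were split as deposited, 3 higher and 4 lower, as were the mitotic kinases, 1 higher and 2 lower, while 4 of 5 kinetochore genes were higher. Centred on housekeeping genes these 3 groups had 0, 1 and 1 genes higher in replicate 3, and under the second centring 3, 1 and 2. None of the 3 passenger genes and none of the 4 anaphase genes was higher in replicate 3 under any scaling tried. The 8 genes that were higher in replicate 3 under every scaling tried were AURKA, MAD2L1, NDC80, KIF2C, DLGAP5, TOP2A, SMC2 and SMC4. Centred on housekeeping genes, the difference almost vanished for SMC4 (0.07), TOP2A (0.03), KIF2C (0.01) and SMC2 (2.21e-05 log2 units). For the others it ran from 0.16 for AURKA to 0.99 for MAD2L1. How many detected genes meet this rule was not counted. More than 1 log2 unit higher in replicate 3 were MAD2L1 (1.59) and NDC80 (1.02), 2 of 42, beside 3.25% of detected genes, and none of the 42 when centred on housekeeping genes, beside 0.254% of detected genes. More than 1 log2 unit lower were FOXM1 (-1.39), PLK1 (-1.34), CDC25B (-1.33), CDC20 (-1.21) and AURKB (-1.11), 5 of 42, beside 9.53% of detected genes, and 10 of 42 (23.8%) when centred on housekeeping genes, beside 31.0% of detected genes.

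**Figure D4:**
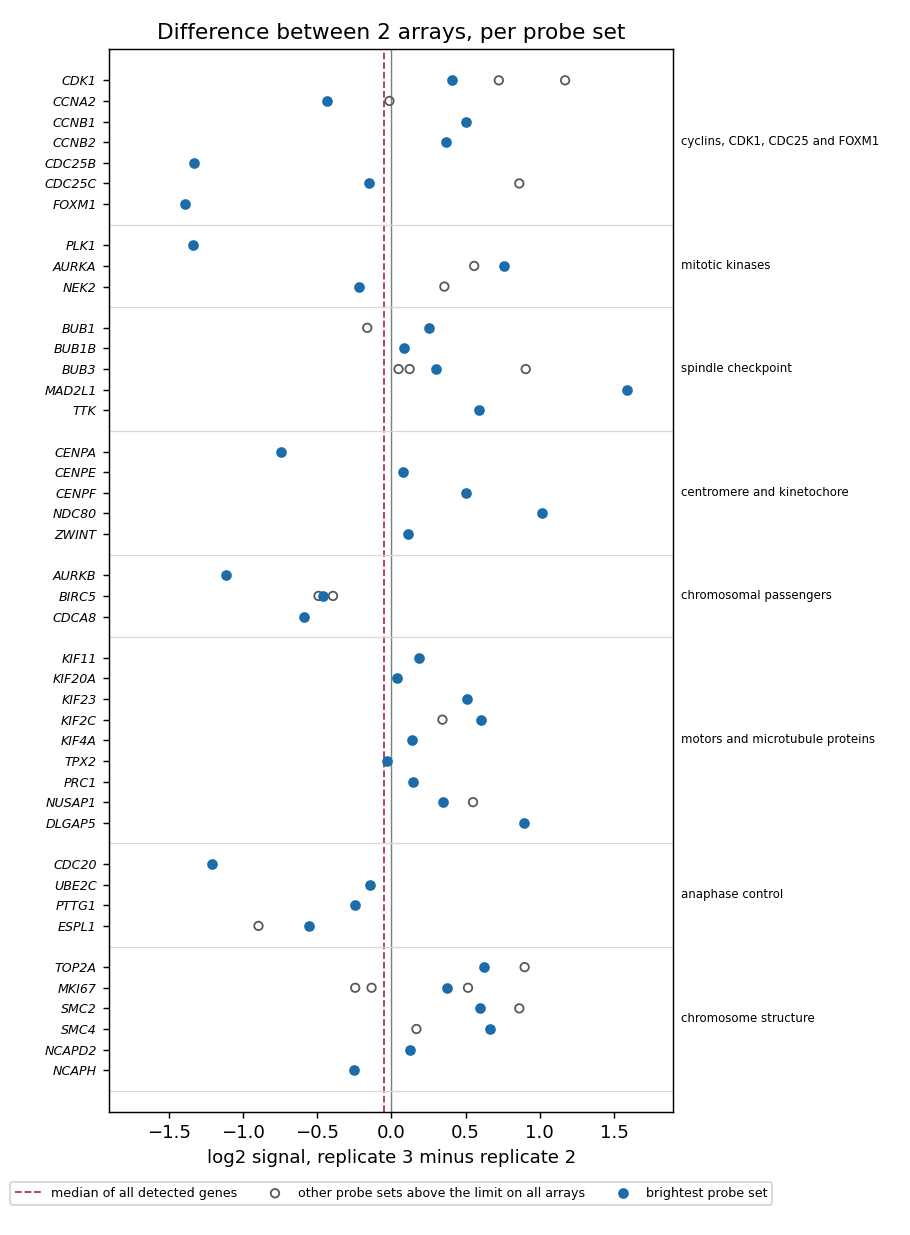
Log2 signal of replicate 3 minus replicate 2 for each gene, grouped by role, on its brightest probe set (filled) and on its other probe sets over the limit in every culture (open); the dashed line is the median of all detected genes, -0.05. Checkpoint genes lie to the right of 0 on their brightest probe sets and passenger and anaphase genes to the left, with MAD2L1 at 1.59 and FOXM1 at -1.39 as the ends. Centring on housekeeping genes would move every point left, and leave 8 of 42 genes above 0, or 16 under the second centring.

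Separate probe sets of one gene mostly gave the same direction as deposited. Of 15 genes with several probe sets over the limit in every culture, 11 had the same sign of this difference on all of them. Of these 11, 8 were higher and 3 lower in replicate 3, with values as small as -0.01 (CCNA2) and 0.05 (BUB3). The count was made neither over all detected genes nor for arrays centred on housekeeping genes. The 3 probe sets of BIRC5 gave values between -0.49 and -0.39, and the 3 of CDK1 between 0.41 and 1.17. BUB1, CDC25C, MKI67 and NEK2 were mixed. Promoter elements stood on both sides. A CHR was present in 19 of the 23 matched genes that were higher in replicate 3 as deposited and in 5 of the 12 that were lower, and CCAAT in 17 of 23 and 10 of 12. These are counts without a test, and the sides they refer to change with housekeeping centring as above.

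Other genes of mitosis that are not in the set were mostly detected too. From a list of 51 further mitosis genes, 44 were measured and 39 passed limma's test. CKS2, a small subunit of CDK complexes, had 6221 ± 753 (SD, n = 3) as its mean signal. UBE2S, a ubiquitin-conjugating enzyme that extends chains for the anaphase-promoting complex, had 8535 ± 2439 (SD, n = 3). CENPI, MAD1L1, NCAPH2, SKA1 and SPC24 did not pass, which is not evidence of absence for each of them. NCAPH2 had 210, 315 and 193 in replicates 1, 2 and 3, above the limit on every array. CENPI had 279, 164 and 347, under the limit in replicate 2 only. Above the limit on all 3 arrays were 40 of the 44. SPC24, a partner of NDC80 in its complex, had 21 ± 10.3 (SD, n = 3), and SKA1, a microtubule-binding kinetochore protein, had 149 ± 72.7 (SD, n = 3). MAD1L1, the anchor of MAD2L1 at kinetochores, had 189.8 ± 97.7 (SD, n = 3) (limma adjusted p = 1), while MAD2L1 itself was 3.96 log2 units over the limit.

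Of 9 measured subunits and activators of the anaphase-promoting complex 8 were detected, among them ANAPC5 with 2246 ± 134 (SD, n = 3) and ANAPC13 with 2443 ± 319.7 (SD, n = 3). CDC23 passed with 309 ± 62.5 (SD, n = 3) (limma adjusted p = 0.0227), and ANAPC2, the cullin subunit, did not pass at 218 ± 120.1 (SD, n = 3). ANAPC2 had 264, 309 and 82.2 in replicates 1, 2 and 3, under the limit in replicate 3 only. All 9 measured cohesin genes were detected, including RAD21, the subunit that separase cuts, with 4776 ± 1217 (SD, n = 3), SMC1A with 3183 ± 845 (SD, n = 3), SMC3 with 1126 ± 348 (SD, n = 3) and STAG1 with 620.5 ± 75 (SD, n = 3). Of 12 measured regulators that bind CHR or CCAAT elements or E2F sites, or belong to the DREAM complex, 10 were detected. RBBP4, a DREAM subunit, had 3497 ± 178 (SD, n = 3) and the E2F partner TFDP1 had 4099 ± 294 (SD, n = 3). LIN37, another DREAM subunit, had 170.3 ± 23.6 (SD, n = 3) and the pocket protein RBL1 had 93.2 ± 29.5 (SD, n = 3), and neither was detected. Higher in replicate 3 than in replicate 2 were 27 of 44 further mitosis genes and 6 of 9 genes of the anaphase-promoting complex. So were 8 of 9 cohesin genes and 4 of 12 regulators, beside 46.4% of detected genes. Centred on housekeeping genes, the counts in these 4 lists were 11, 0, 3 and 1, beside 13.5% of detected genes. Under the second centring they were 13, 2, 8 and 3, beside 27%.

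Marker genes were read for the labelled cell type, and the treatment label was not checked here. Median signal was 137 to 144 per array, and 14 of 17 epithelial and colon markers were detected, among them KRT18 with 25153 ± 4754 (SD, n = 3) and CEACAM6 with 4337 ± 1063 (SD, n = 3), while the intestinal factors CDX1 and CDX2 and the colon antigen GPA33 were not. CDX2 had 12.6 ± 3.57 (SD, n = 3) and GPA33 179 ± 27.8 (SD, n = 3). Of the markers of other cell types, 1 of 14 for fibroblasts and smooth muscle (COL1A1, 378 ± 175 (SD, n = 3)), 0 of 10 for endothelium and 1 of 16 for immune cells (LYZ, 9259.6 ± 4444 (SD, n = 3), which some intestinal epithelial cells also make) were detected by limma. For endothelium the count was also 0 at an unadjusted p under 0.05 and 0 in limma without the variance trend. The summed signal of a list in replicates 1, 2 and 3 was 1328, 1531 and 1184 for fibroblasts and smooth muscle, 553, 834 and 740.4 for endothelium, and 7782, 7868 and 15430 for immune cells, of which LYZ gave 6777, 6612 and 14391. Their part in the levels of the mitosis genes was not tested. PTPRC, the pan-leukocyte marker, was at 16.1 ± 14.6 (SD, n = 3). All 13 measured housekeeping genes and 1 of the 78 background genes were detected.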

How the data were processed

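RNA from 3 cultures of IFN-γ-treated HT-29 cells was measured on 1 array each. The deposited values are signal intensity on a linear scale, which the authors made with the MAS5 method; the submitters' processing notes name Affymetrix Expression Console 1.1. MAS5 combines the probes of a probe set into 1 signal and scales each array; the scaling target, the background step and presence calls are not given in the sources used here. The table held 22283 probe sets, 22277 of them with values. Names were re-ordered as described, an inferred order that moved 19315 probe sets by 487 rows and 2307 by 488, and 62 control values were left out. Platform annotation, which can be old, gave 1 symbol for 19071 probe sets, several for 1043 and none for 2163; only the first kind was used.

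Signals were log2 transformed without a pseudocount. Detection used limma 3.58.1 in R 4.3.3 (lmFit with an intercept, eBayes with trend, adjusted p under 0.05), after the same code was tested on simulated data. All 42 genes were named; in other lists, names came from the 2 smallest and 2 largest adjusted p, plus exceptions to a list. The genes and lists were chosen with earlier results of these data known. Nothing was tested between groups, because there was 1. Promoter letters were searched in RefSeq windows of GRCh38.p14; the array annotation names no build, so windows were joined by symbol.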

Additional observations from a re-analysis of the deposited data

How the results depend on the processing

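All arrays belong to 1 group. No paired analysis was possible because the labels give no second group. Detection of the mitosis genes kept its direction and its call for all 42 of them with the median of the background list as limit, quantile normalization, log2 of signal plus 32 and no variance trend. Of all genes, 70.8%, 42.5%, 42.6% and 41.5% passed in these settings, in that order. The count of mitosis genes was 41 with the 99th percentile limit (CENPE at -0.10 log2 units), beside 33.7% of all genes. It was 41 with the limit from markers of other cell types (CENPE at 0.21), beside 36.5%. With the median over probe sets it was 40 (BUB1 at -0.42, CENPF at -0.20), beside 39.8%. With the same displacement for all names it was 41 (CDC25B at -3.16), beside 42%. It was 41 to 42 when a replicate was left out. Without suffixed probe sets, 27 genes had a value and 24 passed (CDC25C at -2.50, AURKA at -0.29, CENPF at -4.31). Of all genes, 8467 passed with the median limit, 2867 of 8369 without suffixed probe sets, 380 with the names as deposited, and 4680 to 5051 without 1 replicate. The array counts moved when arrays were centred on housekeeping genes, to 8 genes lowest in replicate 2 (12.6% of detected genes), 34 lowest in replicate 3 (84.4%), 1 highest in replicate 3 (4.05%), 8 higher in replicate 3 than in replicate 2 (13.5%), and a median difference of -0.46 (-0.65 over detected genes). Centred on the housekeeping genes' own differences, an alternative chosen after seeing the data, they came to 16 (24.8%), 25 (70.5%), 8 (10.0%), 16 (27%) and -0.20 (-0.39). Without suffixed probe sets, 5 of 27 genes were lowest in replicate 3. The median SD was 0.16 to 0.32 when a replicate was left out. With the names as deposited, 1 of the 42, BUB3, passed, 13 were lowest in replicate 2, 20 lowest and 13 highest in replicate 3, the median difference was -0.19, and r between probe sets was 0.15 for the array difference, 0.41 for the level and 0.19 for the level over all genes. Under those names 39 of the 42 genes lay under the limit, in log2 units: CDK1 -2.78, CCNA2 -2.37, CCNB1 -4.66, CCNB2 -2.11, CDC25B -2.38, CDC25C -4.53, FOXM1 -2.98, PLK1 -0.39, AURKA -1.35, NEK2 -3.33, BUB1 -2.95, BUB1B -3.53, MAD2L1 -3.97, TTK -5.83, CENPA -7.01, CENPE -1.23, CENPF -1.35, NDC80 -4.73, ZWINT -8.82, AURKB -1.94, BIRC5 -1.12, CDCA8 -4.53, KIF11 -3.03, KIF20A -3.80, KIF23 -7.56, KIF2C -2.72, KIF4A -0.92, TPX2 -3.65, PRC1 -9.48, NUSAP1 -3.43, DLGAP5 -2.61, CDC20 -2.05, PTTG1 -5.70, ESPL1 -4.92, MKI67 -3.79, SMC2 -4.55, SMC4 -0.20, NCAPD2 -2.20 and NCAPH -1.88. That setting gives the genes, and the background genes behind the limit, the values of other probe sets. Its limits were 4155, 3792 and 3411 in replicates 1, 2 and 3, beside 190.4, 211 and 176 with the corrected names. These distances are therefore not measured from the same limit as the main ones. The cause of the other changes was not tested. Precision is limited by 3 arrays and, for CENPE, by a signal close to background.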
